A study of Mus musculus with 16 samples.

Results

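KRAB zinc finger genes lie in tandem arrays in the mouse genome, and DNA methylation of 3 such arrays was followed through chemical reprogramming of fibroblasts. The arrays were taken as windows given by coordinates on the GRCm39 build: chr4:145000000-147800000, chr2:174900000-177900000 and chr13:65100000-67700000. Within them the members were selected on read coverage, as every cytosine of a CpG with at least 10 reads in all 16 libraries. This gave 1469 of the 873038 sites of the genome that meet the same rule, and 1469 of the 4979 sites listed for the windows in any library (29.5%). The sites were grouped into 1-kb tiles with at least 3 of them, which left 147 tiles of 94337 in the genome: 60 on chromosome 4, 15 on chromosome 2 and 72 on chromosome 13. Each cluster was compared with the other tiles of its own chromosome in the same class of D0 level (steps of 10 percentage points) and of CpG number (1 to 4, 5 to 9, 10 to 19, and 20 or more). D0 levels therefore chose the matched tiles and are not a finding, and a stretch of the chromosome 4 window lower at D12 was already known when the windows were chosen.

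KRAB zinc finger proteins are the most numerous family of transcriptional repressors in mammals. Arrays of zinc fingers bind DNA, very often within transposable elements, and the KRAB domain recruits TRIM28 (KAP1), which brings in the histone methyltransferase SETDB1 and repressive histone methylation. Some members also protect DNA methylation at imprinted genes. The genes multiply by tandem duplication, and their own arrays are known to carry heterochromatin marks.

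Reduced representation bisulfite sequencing (RRBS) was done on 16 libraries in 8 groups of 2. Cells labelled as reprogramming intermediates were collected at D2, D4, D6, D8, D10 and D12 in reprogramming medium, and established induced pluripotent stem cells (iPSCs) were collected as well; the starting group, D0, was mouse embryonic fibroblasts (MEFs). All groups carry the label 129XOG2, embryonic day 13.5; OG2 cells hold an Oct4-driven GFP reporter, and the fibroblasts were plated at passages 1 to 3 before the medium change. The iPSCs were grown on feeder cells with leukaemia inhibitory factor, CHIR99021 (a GSK3 inhibitor) and PD0325901 (a MEK inhibitor), and the labels do not say whether feeders were removed before DNA was extracted. Each time point was a bulk culture, so loss of methylation in all cells and a growing share of cells with low methylation cannot be told apart. The labels do not say whether the 2 libraries of a group came from separate cultures, so p-values measure the spread between these libraries, which may be technical.

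Median read coverage in the clusters was near that of the rest of their chromosomes, while mean coverage lay further from it. Summed coverage ranged from 39011213 in D6 replicate 1 to 107834007 in D0 replicate 1. The median coverage of member sites was 1.04 to 1.37 times that of the other common sites of the chromosome in the chromosome 4 cluster, 0.849 to 1.30 times in the chromosome 2 cluster and 0.906 to 1.24 times in the chromosome 13 cluster. Mean coverage was higher than outside in every library on chromosomes 4 and 13 and lower in every library on chromosome 2. It was 116 reads against 76.3 on chromosome 4 in D0 replicate 1. On chromosome 2 it was 54.3 against 84.0 in D6 replicate 2. A member tile held 30 to 7469 reads per library, with a read counted at each site it covers, and the medians over tiles were 366, 311 and 265 on chromosomes 4, 2 and 13. The sources used here do not state how reads that fit several gene copies were treated, and whether near-identical copies share reads was not tested.

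The genes of these arrays can be named only as neighbours, since the gene table at hand is on GRCm38.p6 and the files are on GRCm39. On chromosome 4 that table lists 18 protein-coding genes between Zfp990 and Zfp933, and 16 of them carry a Zfp symbol. The others are Rex2 and Gm13212, and Zfp600 and Zfp534 lie among the 16. On chromosome 2, 10 of 34 genes between Zfp831 and Zfp931 carry a Zfp symbol, most of the rest being gene models with Gm numbers; Edn3, which codes for a signalling peptide, is also listed. On chromosome 13, 24 of 31 genes between Zfp640 and Zfp273 carry a Zfp symbol. That array also holds Rsl1 and Rslcan18. Rsl1 is a KRAB zinc finger repressor of sex-limited genes in mouse liver. It also lists genes of other functions: Uqcrb (a subunit of mitochondrial complex III), Mterf3 (a mitochondrial transcription factor) and Ptdss1 (phosphatidylserine synthase). No tile was assigned to a gene.

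The 3 clusters averaged 54.2% to 68.0% at D0, 19.3% to 29.2% at D12 and 42.1% to 62.2% in iPSCs, as the plot of mean levels by library shows. The level of a tile is the percentage of methylated reads over its common sites, and the level of a cluster is the mean over its tiles. On chromosome 4 the cluster averaged 68.0% at D0, 64.8% at D2, 66.6% at D4, 56.8% at D6, 47.8% at D8, 39.9% at D10, 29.2% at D12 and 62.2% in iPSCs. On chromosome 2 these levels were 60.8%, 58.3%, 59.2%, 50.8%, 38.0%, 33.1%, 19.3% and 60.2% in the same order. On chromosome 13 they were 54.2%, 51.1%, 52.8%, 44.4%, 34.8%, 30.1%, 20.1% and 42.1%. The SD of the 2 libraries was highest at 2.3 points for chromosome 13 at D8.

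**Figure D1:**
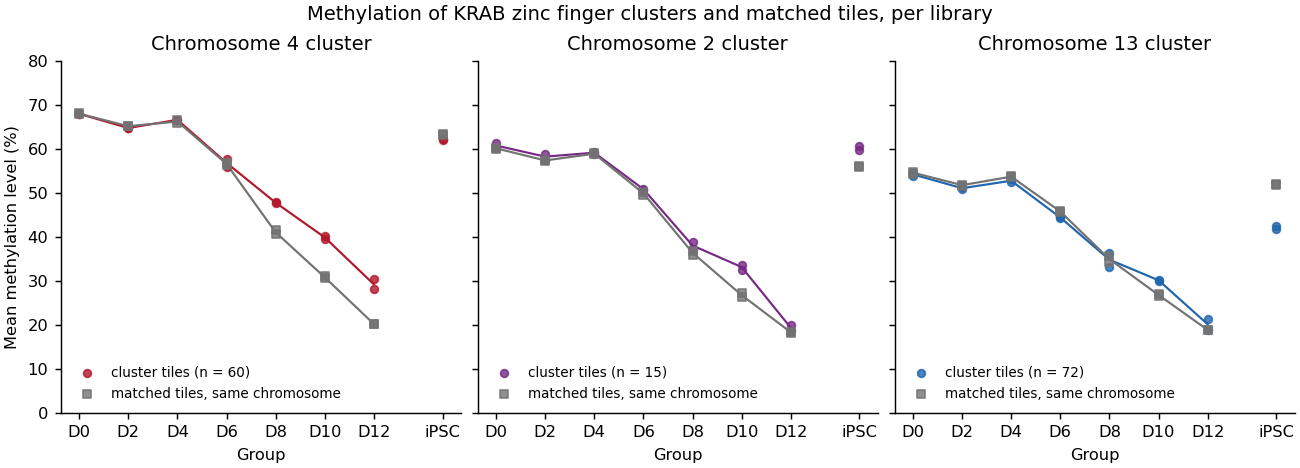
Mean methylation level (%) of the cluster tiles and of the matched tiles of the same chromosome (vertical axis) in each group (horizontal axis), with a point for each library and lines through the group means. At D12 the chromosome 4 cluster stood at 29.2% with its matched tiles at 20.2%, and in iPSCs the chromosome 13 cluster stood at 42.1% with its matched tiles at 51.9%.

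Methylation in the clusters was lower at D12 than at D0 by 38.8 percentage points on chromosome 4, 41.4 on chromosome 2 and 34.1 on chromosome 13, and the D12 and D0 libraries did not overlap. For each of these the exact two-sided permutation test gave p = 0.333, the smallest that 2 libraries against 2 allow. Tile by tile, edgeR's quasi-likelihood test on methylated and unmethylated reads called 122 of the 147 member tiles lower at D12 than at D0 (54 of 60, 12 of 15 and 56 of 72 on chromosomes 4, 2 and 13) and 0 higher. A call needed an adjusted p under 0.05 over all tiles of the genome and a difference of at least 10 points. Over all tiles tested, 82.7% were called lower and 0.649% higher, so the members' 83% was near the background. Among matched tiles, 95.4%, 82.6% and 78.4% were called lower on chromosomes 4, 2 and 13. The median difference of member tiles was -40.4, -48.4 and -39.4 points in that order, and that of all tiles was -45.9 points.

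Losses in the clusters were first called at D6. At D2 edgeR called 0 member tiles in either direction, with 2 at an unadjusted p under 0.05, and the quasi-binomial test also called 0. Over all tiles 0.0488% were called lower and 0.00% higher at D2. At D4 edgeR called 0 member tiles, with 4 at an unadjusted p under 0.05, while the quasi-binomial test called 1, and the shares over all tiles were 0.0763% lower and 0.00424% higher. At D6, 42 member tiles were called lower: 24 of 60 on chromosome 4, 6 of 15 on chromosome 2 and 12 of 72 on chromosome 13. The background at D6 was 21.3% lower and 0.104% higher, and the matched tiles had 23.9%, 23.3% and 20.1% lower, beside 40.0%, 40.0% and 16.7% of the members. The D6 count fell with any 1 of the D0 or D6 libraries left out, which leaves 1 library in a group. Lower calls over all tiles fell as well, so the drop was not particular to the members. The median difference over all tiles stayed between -9.99 and -9.49 points, beside -9.86 with all libraries.

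By D8, 104 member tiles were lower and 1 was higher, beside 72.3% and 0.544% of all tiles. At D10 there were 112 lower and 0 higher, beside 81.6% and 0.201% of all tiles. On chromosome 4 the calls were 47 of 60 at D8 and 52 of 60 at D10 (78.3% and 86.7%; matched tiles, 84.8% and 93.7%). On chromosome 2 they were 12 of 15 on both days (80%; matched tiles, 73.6% at D8 and 82.0% at D10). On chromosome 13 they were 45 of 72 at D8 and 48 of 72 at D10 (62.5% and 66.7%; matched tiles, 65.3% and 77.4%).

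The chromosome 4 cluster held more methylation than its matched tiles from D8 on. Its gap, the cluster mean minus the matched mean in the same library, was 6.05 and 7.42 points in the D8 libraries, 9.06 and 9.10 at D10, and 10.2 and 7.85 at D12. In the D2 libraries the gap was -0.41 and -0.41 points, at D4 0.62 and 0.16, and at D6 1.25 and -0.79. Every library of D8, D10 and D12 lay above every earlier library. The late libraries averaged 8.28 ± 1.5 points (SD, n = 6) and the D2 and D4 libraries -0.01 ± 0.50 (SD, n = 4). Libraries of different days were taken here as replicates of a period. The SDs, the SE and the p-value thus mix change between days with the spread of same-day libraries. The difference was 8.29 points with an SE of 0.65. The exact two-sided permutation test gave p = 0.00476, the smallest that 6 against 4 libraries allow, and 0.0143 adjusted over the 3 clusters. D2 and D4 levels lay near D0, which chose the matched tiles (median differences over all tiles -2.20 and -1.09 points). Small early gaps were thus largely set in advance in each cluster. All libraries measured the same tiles, so the p-value measures no spread between tiles. It is no support for a trait particular to the cluster.

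The other clusters gave smaller differences, which missed the threshold but passed it under some alternatives. On chromosome 2 the late libraries averaged a gap of 3.02 points and the D2 and D4 libraries 0.55, a difference of 2.47 ± 1.15 (SE; exact permutation p = 0.138, adjusted 0.138). On chromosome 13 the gap was 1.5 points in the late libraries and -0.81 at D2 and D4, a difference of 2.31 ± 0.78 (SE; exact permutation p = 0.0524, adjusted 0.0786). The difference on chromosome 2 was 3.98 points with at least 1 site per tile (adjusted exact permutation p = 0.0357). That on chromosome 13 was 4.03 points with at least 20 reads per site (adjusted exact permutation p = 0.0214) and 2.91 with pooled reads (adjusted exact permutation p = 0.0357), and 2.82 without D8 replicate 2 (adjusted exact permutation p = 0.0238). Both gaps were widest at D10, with gaps of 6.17 and 6.59 points on chromosome 2 and 3.35 and 3.34 on chromosome 13. At D12 the libraries gave 1.84 and 0.24 on chromosome 2 and -0.02 and 2.58 on chromosome 13. Whether the gap differs between the clusters was not tested.

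Part of the chromosome 4 gap was known when the window was chosen. Without the run of 6 adjacent tiles described below, the remaining 54 tiles gave a difference of 7.52 points (exact permutation p adjusted 0.0143). With D8 and D10 as the only late days (4 against 4 libraries), the difference was 7.92 points. Its exact permutation p adjusted over the 3 clusters was 0.0857 and missed the threshold. Every D8 and D10 gap lay above every D2 and D4 gap, so the unadjusted p was the smallest that 4 against 4 libraries allow. The miss thus reflects the number of libraries and does not show a weaker gap without D12. For D12 minus D0 alone the change in gap was 9.07 ± 1.17 points on chromosome 4, 0.40 ± 0.94 on chromosome 2 and 1.67 ± 1.31 on chromosome 13 (SE, n = 2 each; exact permutation p of 0.333, 0.667 and 0.333). Because D0 chose the matched tiles, the D0 gaps and their spread are small by design, and these changes are given as a description.

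**Figure D2:**
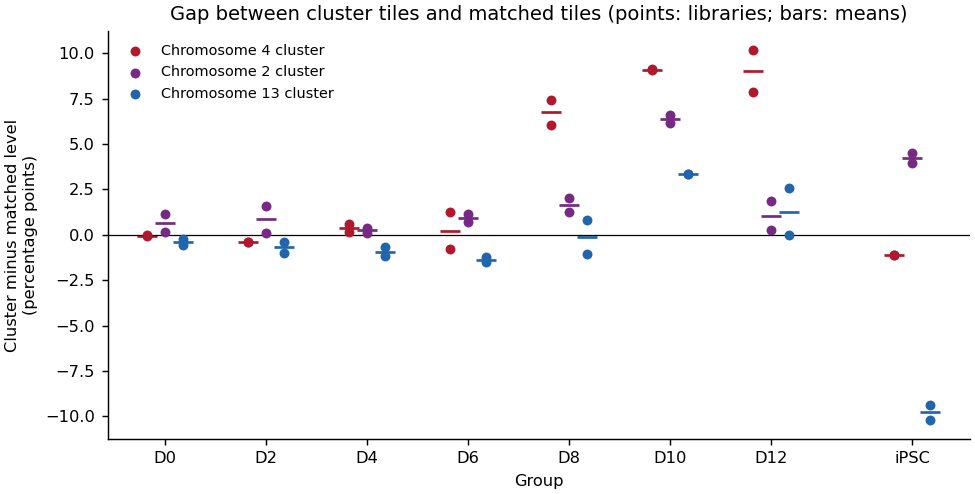
Gap between cluster tiles and matched tiles (vertical axis, percentage points) in each group (horizontal axis); points are libraries and bars are group means. The chromosome 4 gaps lie between 6.05 and 10.2 points from D8 to D12 and between -0.79 and 1.25 from D2 to D6, while the chromosome 13 gaps in iPSCs are -10.2 and -9.35.

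Relative to their D0 level, chromosome 4 tiles retained more at D12. The cluster stood at 43.0% of its D0 level, against 29.7% for the matched tiles. Of its 60 tiles, 47 lay above the mean of their matched tiles at D12, as did 8 of 15 on chromosome 2 and 36 of 72 on chromosome 13. The share of matched tiles above their own class mean was not counted, so these counts lack a background. Among the 52 chromosome 4 tiles at 50% or more in D0, the share kept at D12 ran from 13.6% to 80.1% with a median of 42.0%. The 4618 other tiles of chromosome 4 at that level had a median of 25.6%, and 16 of the 52 members exceeded their 90th percentile of 46.2%. On chromosome 2 the 11 such members kept a median of 33.7% (16.5% to 42.8%), beside 25.7% for the other tiles, and 0 passed the 90th percentile of 45.8%. On chromosome 13 the 46 such members kept a median of 34.2% (12.8% to 70.4%), beside 27.2%, and 7 passed 47.8%. These shares are given as a description, without a test.

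The chromosome 4 gap was seen in each class of CpG number. At D12 the members with 1 to 4 CpGs averaged 22.6% and their matched tiles 15.7% (19 members). With 5 to 9 CpGs the levels were 27.0% and 19.5% (18 members), with 10 to 19 CpGs 39.2% and 26.5% (17 members), and with 20 or more 28.5% and 18.8% (6 members).

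Single sites in the chromosome 4 cluster were mostly partly methylated at D12. Of the 624 sites, 71.8% lay between 20% and 80% at D12, where 36.2% of the other common sites of the chromosome did. The other sites were not matched on D0 level or CpG number. At D0 34.9% of them were already under 20%, beside 14.3% of the cluster sites. At D12 1.36% of the cluster sites were at 80% or more, where 59.4% had been at D0. The rest of chromosome 4 had 0.343% at D12 and 38.8% at D0. At D8 14.1% of the cluster sites were still at 80% or more, beside 5.23% of the rest. Reads were not available here as single molecules, so partial levels cannot be split into methylated and unmethylated copies.

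The longest run of adjacent tiles called lower at D12 lay at chr4:146416001-146422000 and covered 6 tiles. Run length depends on how many adjacent tiles met the coverage rule, so it cannot be compared between the clusters. Over these tiles the D0 libraries averaged 73.9% and 72.2%, with 68.4% and 70.3% at D2, 75.9% and 72.1% at D4, 65.1% and 65.7% at D6, 56.9% and 55.5% at D8, 47.5% and 49.4% at D10, 39.6% and 38.5% at D12, and 80.1% and 80.2% in iPSCs. From D6 on each day's libraries lay below those of the collection before, and both iPSC libraries lay above both D0 libraries. The deepest tile of the run, chr4:146417001-146418000, held 63 sites and 2568 to 7469 reads per library. It had 45.7% and 44.9% at D12, against 77.5% and 79.8% at D0, a difference of -33.3 points (edgeR adjusted p = 8.82e-07).

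At the top of the range, 3 chromosome 4 tiles kept most of their D0 level. The first, chr4:146427001-146428000, had 50.9% and 29.7% at D12, against 54.1% and 46.5% at D0, and kept 80.1%. Its D12 and D0 libraries overlapped and the difference of -10.02 points was not called (edgeR adjusted p = 0.252). It had 5 sites and 73 to 255 reads per library, and without D12 replicate 2 the difference was 0.62 points. It was called with strands merged (-19.5 points, edgeR adjusted p = 0.00485) and without D12 replicate 1 (-20.7 points, edgeR adjusted p = 0.0235). The second, chr4:146331001-146332000, had 62.9% and 47.1% at D12, against 81.8% and 88.5% at D0, and fell by 30.1 points (edgeR adjusted p = 0.000867) while keeping 64.6%. The third, chr4:146418001-146419000 within the run, kept 63.2% and fell by 26.5 points (edgeR adjusted p = 0.00339).

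At the other end, 3 chromosome 4 tiles fell furthest at D12. The tile chr4:146308001-146309000 had 14.2% and 20.0% at D12, against 76.4% and 79.2% at D0, a fall of 60.7 points (edgeR adjusted p = 1.21e-06). In iPSCs it was back at 77.7% and 68.3%. The tile chr4:146120001-146121000 showed the largest fall, but with 3 sites and 48 to 162 reads per library its values scattered. It had 36.4% and 0.00% at D12, against 92.5% and 80.7% at D0, a difference of -68.4 points (edgeR adjusted p = 0.0102). Without D0 replicate 1 the call was lost, at -62.5 points (edgeR adjusted p = 0.0636). The remaining tile, chr4:146262001-146263000, fell by 59.9 points at D12 (edgeR adjusted p = 2.88e-07) and is described with the iPSC results.

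**Figure D3:**
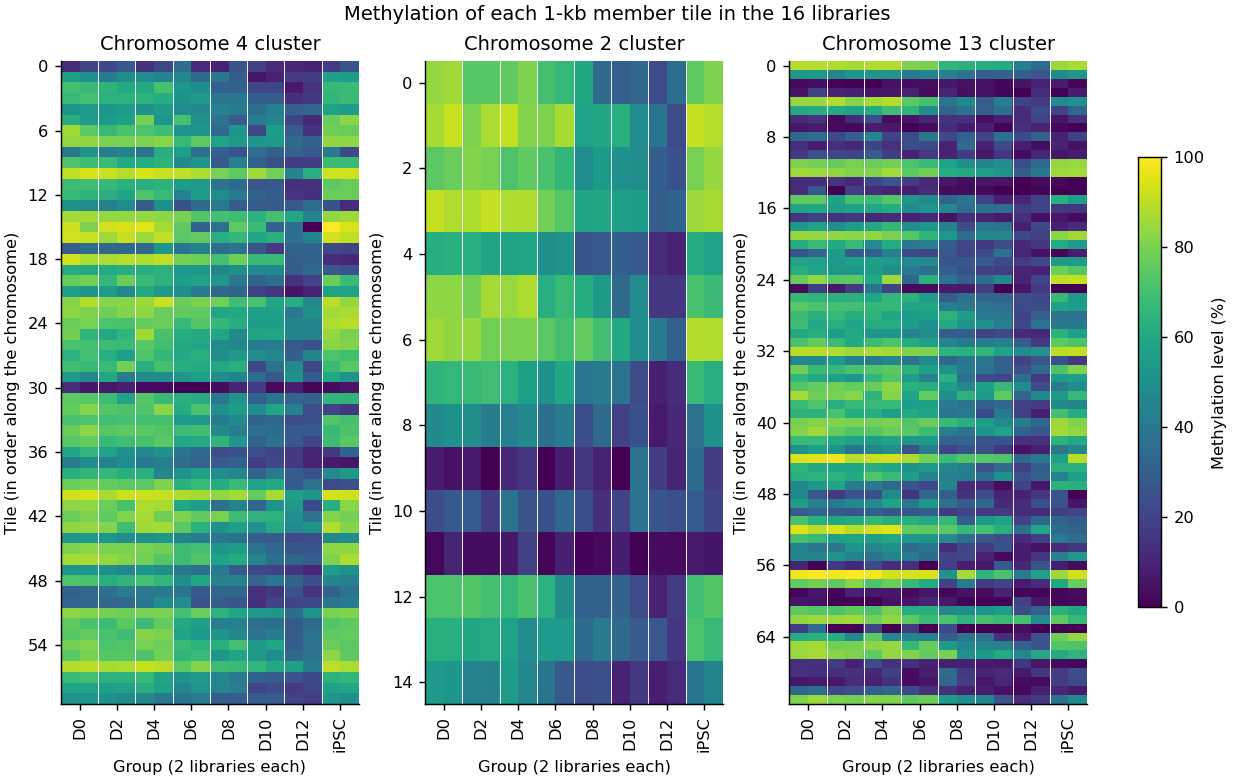
Methylation level (colour, %) of each 1-kb member tile (rows, in order along the chromosome) in the 16 libraries (columns, 2 per group). The columns darken from D6 to D12 in most tiles of all 3 clusters, with 122 of 147 tiles called lower at D12 than at D0, and 99 called higher in iPSCs than at D12.

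The chromosome 2 cluster had 15 tiles, and its change in gap at D12 depended on the tiles admitted: 0.40 points with at least 3 sites per tile and 4.02 with at least 1. Its largest fall was at chr2:176877001-176878000, a tile of 6 sites with 116 to 830 reads per library. Its levels were 82.9% and 83.1% at D0, 79.1% and 86.6% at D2, 84.7% and 87.5% at D4, 62.7% and 67.5% at D6, 62.1% and 54.3% at D8, 34.5% and 48.1% at D10, 15.6% and 16.4% at D12, and 71.1% and 68.1% in iPSCs. Both D12 libraries were the lowest of all 16. The fall at D12 was 67.0 points (edgeR adjusted p = 3.25e-07). The next were chr2:175001001-175002000, lower by 58.5 points (edgeR adjusted p = 1.41e-07), and chr2:177823001-177824000, lower by 58.1 points (edgeR adjusted p = 1.5e-06).

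Most was kept on chromosome 2 by chr2:177296001-177297000, with 41.8% and 30.7% at D12, against 85.9% and 83.5% at D0. It kept 42.8%, and it fell by 48.4 points (edgeR adjusted p = 2.84e-06). The tiles chr2:175000001-175001000 and chr2:174992001-174993000 kept 36.3% and 34.9%. The longest stretches called lower at D12 were a pair of runs, each of 2 tiles, and no more than 2 adjacent tiles there met the coverage rule. The first, chr2:175000001-175002000, had means of 29.9% and 28.7% at D12, 82.4% and 85.6% in iPSCs, and 82.9% and 82.5% at D0. The second, chr2:177726001-177728000, averaged 9.89% at D12, 54.8% in iPSCs and 57.7% at D0.

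In the chromosome 13 cluster the largest falls at D12 were 65.9 to 68.5 points. The tile chr13:67633001-67634000 had 12.7% and 16.4% at D12, against 80.6% and 85.5% at D0, a fall of 68.5 points (edgeR adjusted p = 9.3e-07). The tile chr13:67078001-67079000 fell by 67.5 points (edgeR adjusted p = 3.98e-06), and chr13:65384001-65385000 by 65.9 points (edgeR adjusted p = 6.32e-07). No more than 2 adjacent tiles met the coverage rule there, so no longer run could be seen, and 9 runs called lower at D12 had that length. The first along the chromosome, chr13:65384001-65386000, had means of 16.2% and 19.8% at D12, 33.8% and 41.6% in iPSCs, and 72.2% and 73.5% at D0. In iPSCs it thus lay between its D12 and D0 levels. Over the 9 runs the mean ranged from 1.05% to 37.3% at D12, from 1.16% to 74.5% in iPSCs and from 16.6% to 79.7% at D0. One of them, chr13:66357001-66359000, stood above its D0 level in iPSCs on average, but the libraries overlapped (77.6% and 71.5% in iPSCs, 72.1% and 72.8% at D0). Another, chr13:66862001-66864000, stood below its D12 level on average, again with overlap (33.6% and 30.2% in iPSCs, 28.1% and 46.6% at D12).

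Chromosome 13 also held tiles that kept much of their level. The tile chr13:67221001-67222000 kept 70.4%, with 70.2% and 48.1% at D12, against 83.4% and 84.8% at D0, a fall of 24.9 points (edgeR adjusted p = 0.00122). The tile chr13:67382001-67383000 kept 62.5%. The deeper tile chr13:66135001-66136000 held 15 sites and 818 to 4487 reads per library. It had 89.2% and 89.8% at D0, 88.0% and 85.1% at D2, 87.5% and 86.2% at D4, 80.5% and 80.2% at D6, 65.2% and 63.8% at D8, 65.7% and 58.0% at D10, 48.2% and 50.6% at D12, and 89.5% and 90.7% in iPSCs. It thus kept 55.2% at D12 (a fall of 40.1 points, edgeR adjusted p = 2.13e-07), and its iPSC and D0 libraries differed by 0.53 points on average (edgeR adjusted p = 0.886).

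A few chromosome 13 tiles were unmethylated from the start. The 3 tiles under 15% in all 16 libraries ranged from 0.402% to 13.9%, and no such tile was found on chromosomes 4 or 2. Low tiles were not particular to chromosome 13, however. The tile chr2:177784001-177785000 missed the rule only in D4 replicate 2, at 19.4%. Likewise chr4:146493001-146494000 missed it only in D10 replicate 1, at 17.5%. Of the 3 tiles, the one with most reads, chr13:65260001-65261000, held 33 common sites in 65 CpGs. It had 5.35% and 9.06% at D12, 8.06% and 1.69% in iPSCs, and 2.55% and 4.01% at D0. Its D12 libraries differed from D0 by 3.93 points (edgeR adjusted p = 0.269).

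In iPSCs the clusters lay at different distances from D0, which was not tested between them. The chromosome 2 cluster averaged 60.2 ± 0.52% in iPSCs and 60.8 ± 0.85% at D0, and the chromosome 4 cluster 62.2 ± 0.12% in iPSCs and 68.0 ± 0.091% at D0 (SD, n = 2 each). The chromosome 13 cluster averaged 42.1 ± 0.54% in iPSCs and 54.2 ± 0.51% at D0 (SD, n = 2 each), while its matched tiles had 51.9 ± 0.068% in iPSCs and 54.6 ± 0.26% at D0. It thus stood at 77.7% of its D0 level, against 95.1% for the matched tiles. The change in gap, iPSC minus D0, was -9.39 ± 0.46 points on chromosome 13, -1.06 ± 0.022 on chromosome 4 and 3.59 ± 0.56 on chromosome 2 (SE, n = 2 each). In each cluster the iPSC gaps lay outside the range of the D0 gaps, and the exact permutation test gave p = 0.333, its smallest, for each. The D0 libraries chose the matched tiles, which keeps the D0 gaps small by design. This lack of overlap was thus largely set in advance and is no support for a difference. The difference in cluster level was -12.1 points on chromosome 13, -5.76 on chromosome 4 (exact permutation p = 0.333 each) and -0.56 on chromosome 2 (exact permutation p = 0.667). The chromosome 4 values depended on how tiles were weighted. With reads pooled over sites its change in gap was 1.87 points and its difference in level -2.68 points, and the median gap of its tiles in iPSCs was 3.57 points.

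On chromosome 13 the lower level in iPSCs was seen in many tiles: 54 of 72 lay below the mean of their matched tiles in iPSCs, as did 21 of 60 on chromosome 4 and 5 of 15 on chromosome 2. These counts lack a background, as the share of matched tiles below their own class mean was not counted. The mean iPSC level was at least 30 points below D0 in 9 of 72 chromosome 13 tiles. Falls of that size were not particular to chromosome 13, with 7 of 60 tiles on chromosome 4 and 0 of 15 on chromosome 2. Their share over all tiles was not counted. In iPSCs, 23 of 72 chromosome 13 tiles were called lower than at D0 (31.9%). That compares with 9.99% of the matched tiles and 9.42% of all tiles. On chromosome 4 the lower calls were 9 of 60 (15.0%, matched tiles 12.2%) and on chromosome 2 1 of 15 (6.67%, matched tiles 9.36%). Higher calls were 2 on chromosome 13, 1 on chromosome 4 and 0 on chromosome 2, beside 4.02% of all tiles. The median difference was -10.6 points on chromosome 13, -0.38 on chromosome 4 and -0.63 on chromosome 2, beside -1.76 points over all tiles. Each call rests on 2 libraries a group, and the chromosome 13 count fell with any 1 D0 or iPSC library left out. The 36 calls in either direction over the 3 clusters fell too, as did the calls over all tiles. The median difference over all tiles stayed between -1.91 and -1.67 points.

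**Figure D4:**
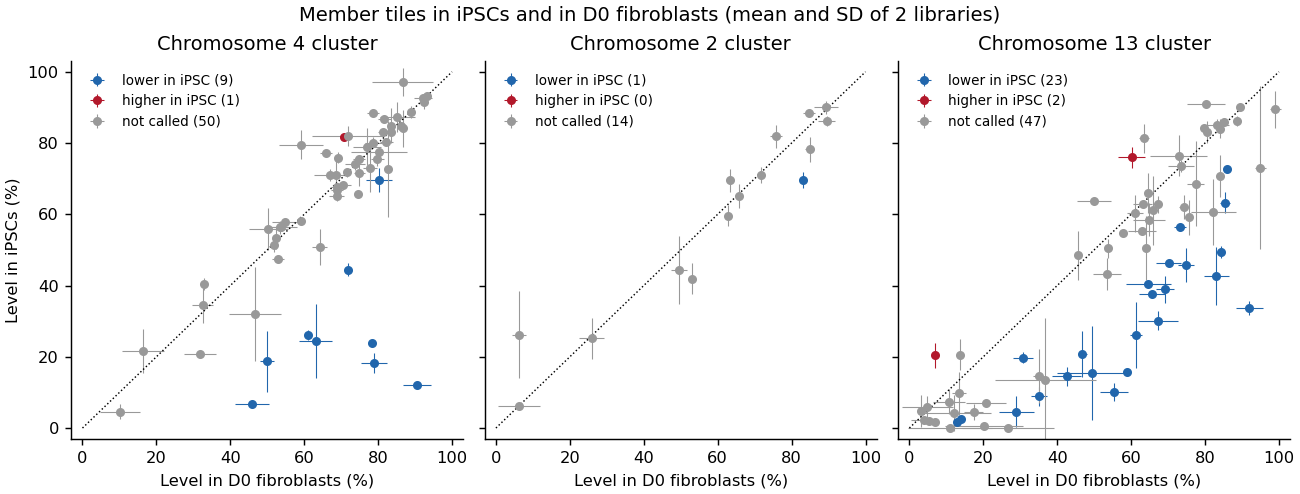
Level of each member tile in iPSCs (vertical axis, %) against its level at D0 (horizontal axis, %), as mean and SD of 2 libraries, with tiles called lower, called higher or not called in separate colours and a dotted line of equality. On chromosome 13, 23 of 72 tiles lie below the line and were called lower, against 9 of 60 on chromosome 4 and 1 of 15 on chromosome 2.

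The chromosome 13 tiles lower in iPSCs were spread along the window, as the plot of levels along each window shows. Each stretch of 0.5 Mb held some, with 5 of 19 tiles in the first and then 4 of 13, 3 of 14, 6 of 15, 3 of 8 and, in the last 0.1 Mb, 2 of 3. On chromosome 4 the 9 calls lay between 1.0 and 2.5 Mb from the start of the window, 3 in each stretch of 0.5 Mb. By CpG number, the chromosome 13 calls were 12 of 28 tiles with 10 to 19 CpGs, 6 of 19 with 5 to 9, 3 of 15 with 1 to 4 and 2 of 10 with 20 or more. Members with 10 to 19 CpGs averaged 37.4% in iPSCs, and their matched tiles 50.9%. Those with 20 or more averaged 30.0% both in the members and in the matched tiles.

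The 23 chromosome 13 tiles had a median level of 30.2% in iPSCs, 18.5% at D12 and 64.7% at D0, and 7 of them stood lower in iPSCs than at D12. The 9 chromosome 4 tiles had a median of 23.9% in iPSCs, 30.7% at D12 and 71.7% at D0, and 6 of them stood lower in iPSCs than at D12. None of those 7 chromosome 13 tiles was called lower in iPSCs than at D12, while 2 of the 6 chromosome 4 tiles were. The medians describe tiles chosen by the call itself. At single sites, 44.6% of the 711 chromosome 13 sites were under 20% in iPSCs, against 33.3% at D0, while in the rest of the chromosome 36.3% were under 20% in iPSCs and 35.6% at D0.

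**Figure D5:**
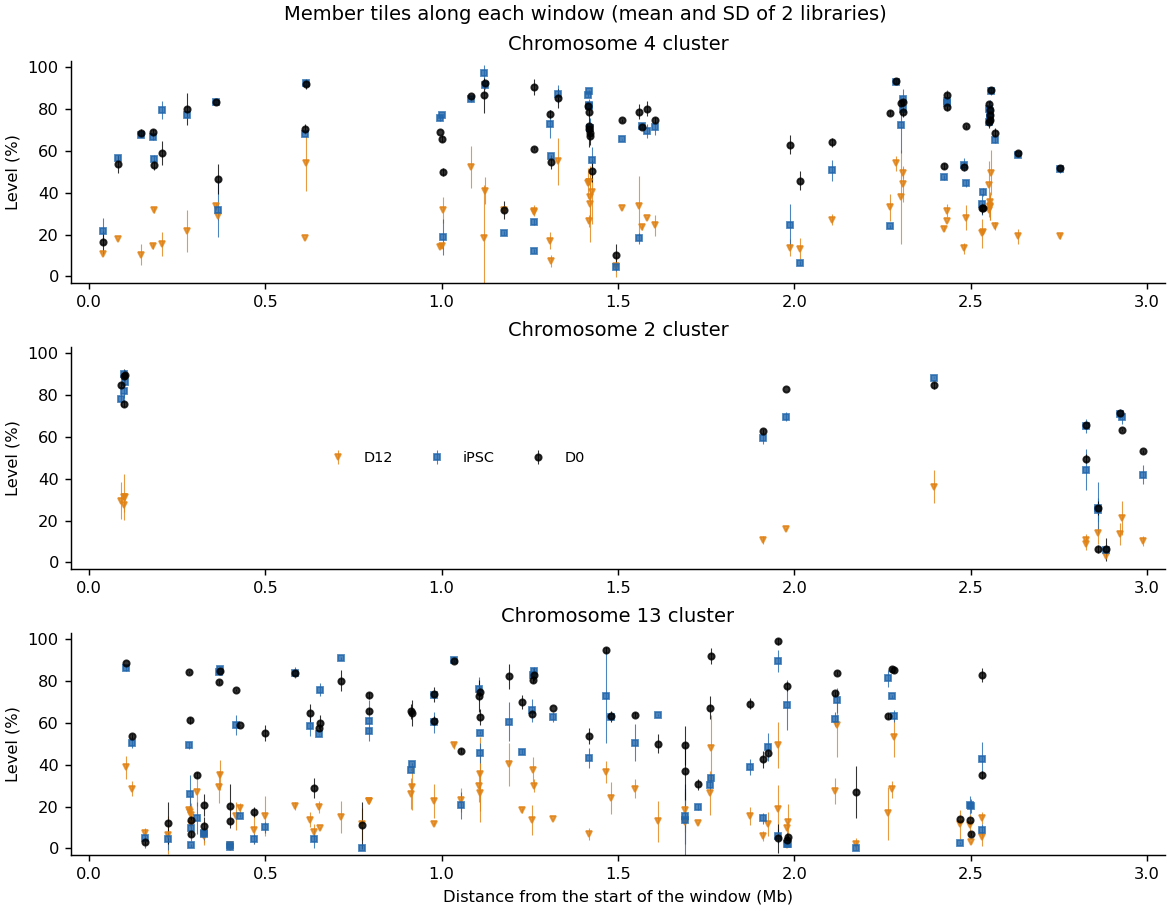
Level (vertical axis, %; mean and SD of 2 libraries) of member tiles at D12, in iPSCs and at D0 along each window (horizontal axis, distance from its start in Mb). Tiles lower in iPSCs than at D0 lie throughout the chromosome 13 window, with 5 of 19 tiles in the first 0.5 Mb and 6 of 15 between 1.5 and 2.0 Mb, and on chromosome 4 between 1.0 and 2.5 Mb.

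The largest difference in iPSCs was at chr4:146262001-146263000, a tile of 3 sites with 355 to 1053 reads per library. Its levels were 93.3% and 87.8% at D0, 87.3% and 89.3% at D2, 87.8% and 90.4% at D4, 79.3% and 77.9% at D6, 70.2% and 78.0% at D8, 67.1% and 67.6% at D10, 30.2% and 31.1% at D12, and 12.8% and 11.6% in iPSCs. It kept its D0 level longer than the cluster as a whole, and its iPSC libraries were the lowest of all. The iPSC level was below D0 by 78.3 points (edgeR adjusted p = 5.2e-06) and below D12 by 18.5 points (edgeR adjusted p = 0.000415). Its 3 sites had 7.91% to 16.02% in iPSCs, against 83.1% to 94.9% at D0. The tile chr4:146560001-146561000 had 20.1% and 16.2% in iPSCs, 43.8% and 23.7% at D12, and 76.3% and 81.4% at D0 (iPSC minus D0 -60.7 points, edgeR adjusted p = 0.000219). The tile chr4:147272001-147273000 had 23.3% and 24.5% in iPSCs, against 77.6% and 79.1% at D0 (-54.4 points, edgeR adjusted p = 1.85e-05).

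On chromosome 13 the tile with most reads among those named, chr13:65527001-65528000, held 22 sites and 2668 to 6995 reads per library. Its levels were 59.1% and 58.6% at D0, 55.7% and 57.1% at D2, 59.0% and 61.9% at D4, 48.1% and 51.8% at D6, 47.7% and 36.0% at D8, 37.2% and 36.4% at D10, 17.7% and 21.1% at D12, and 16.1% and 15.2% in iPSCs. Both iPSC libraries lay below every library from D0 to D12. The iPSC level was lower than at D0 by 43.2 points (edgeR adjusted p = 1.84e-05). The tile chr13:66863001-66864000 had 35.2% and 32.2% in iPSCs, 36.9% and 59.3% at D12, and 94.6% and 89.4% at D0 (iPSC minus D0 -58.3 points, edgeR adjusted p = 0.000145). The tile chr13:65599001-65600000 had 8.27% and 11.9% in iPSCs, against 52.7% and 58.0% at D0 (-45.2 points, edgeR adjusted p = 0.000977). On chromosome 2 the single lower tile was chr2:176877001-176878000, at -13.4 points (edgeR adjusted p = 0.0463). That call was lost without any one of the D0 and iPSC libraries and with at least 1 site per tile, with edgeR adjusted p between 0.0592 and 0.214.

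Tiles higher in iPSCs than at D0 were few. The tile chr4:146419001-146420000, inside the 6-tile run, had 82.2% and 81.2% in iPSCs, against 71.1% and 70.1% at D0, a rise of 11.1 points (edgeR adjusted p = 0.00538). Without D0 replicate 2 the call was lost (10.6 points, edgeR adjusted p = 0.0518). Its neighbour chr4:146417001-146418000 had 87.9% and 89.1% in iPSCs, against 77.5% and 79.8% at D0, 9.86 points higher (edgeR adjusted p = 0.0027) and under the 10 points a call needed. On chromosome 13 the tile chr13:65755001-65756000 had 78.1% and 73.8% in iPSCs, 10.3% and 9.31% at D12, and 62.7% and 57.6% at D0. Its rise of 15.8 points (edgeR adjusted p = 0.0118) was lost without D0 replicate 2 (13.2 points, edgeR adjusted p = 0.112) and without iPSC replicate 1 (13.6 points, edgeR adjusted p = 0.107).

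The remaining higher tile, chr13:67600001-67601000, was low in most libraries. It had 18% and 22.8% in iPSCs, against 6.31% and 7.41% at D0, 13.5 points higher (edgeR adjusted p = 0.0292). That call too was lost without any one of the D0 and iPSC libraries and with at least 20 reads per site, with edgeR adjusted p between 0.0733 and 0.175. It was also the 1 member tile called higher at D8, with 32.5% and 18.5%, and it had 3.37% and 2.86% at D12.

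Set against D12, most of the clusters' tiles were methylated again in iPSCs. There were 99 member tiles called higher in iPSCs than at D12 (49 of 60, 12 of 15 and 38 of 72 on chromosomes 4, 2 and 13), beside 79.8% of all tiles. Among matched tiles 90.6%, 78.7% and 73.3% were called higher, and on chromosome 13 that compares with 52.8% of the members. The cluster mean was higher in iPSCs than at D12 by 33.0 points on chromosome 4, 40.9 on chromosome 2 and 22.0 on chromosome 13 (exact permutation p = 0.333 each).

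Lower calls in iPSCs against D12 were 3 member tiles, beside 1.48% of all tiles. They were chr4:146262001-146263000 and chr4:146560001-146561000 (-15.6 points, edgeR adjusted p = 0.0401), given above, and chr13:65389001-65390000, singled out after its values were seen. This last tile had 2.13% and 1.06% in iPSCs, 13.9% and 9.87% at D12, and 6.29% and 7.76% at D0 (iPSC minus D12 -10.3 points, edgeR adjusted p = 0.0114).

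Sites and tiles near the edges of the selection differed from the members in part. On chromosome 4, the 75 member sites whose lowest coverage was 10 or 11 reads averaged 34.5% at D12, 62.2% in iPSCs and 61.9% at D0. The 131 sites of the window that were listed in 15 of the 16 libraries, and so were left out, averaged 28.6%, 43.9% and 54.6% in the same order. On chromosome 2 the 16 sites inside averaged 31.8%, 66.4% and 63.6%, and the 19 outside 34.3%, 55.3% and 53.1%. On chromosome 13 the 120 sites inside averaged 25.3%, 45.8% and 57.0%, and the 187 outside 25.9%, 50.7% and 59.4%. The iPSC level of the chromosome 4 window was thus lower in left-out sites than in members. At the window borders, the 8 member tiles in the outer 200 kb on chromosome 13 averaged 15.1% at D12, 29.6% in iPSCs and 37.3% at D0, and the 10 tiles within 200 kb beyond averaged 26.7%, 62.7% and 61.6%. On chromosome 4 the 7 tiles inside averaged 17.7%, 54.1% and 53.1%, and the 18 beyond 21.9%, 59.4% and 60.3%. On chromosome 2 the 12 inside averaged 18.9%, 57.2% and 56.8%, and the 11 beyond 25.0%, 64.1% and 70.9%. At the chromosome 4 border the members thus did not stand above the tiles beyond at D12. These tiles were not matched on D0 level.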

How the data were processed

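Genomic DNA was cut with MspI, bisulfite converted, amplified for 15 PCR cycles and sequenced with 150-bp reads, per the labels' protocols. The submitters' processing notes name fastp 0.20.1, Bismark 0.23.0, Bowtie2, methylKit and the GRCm39 build, with no settings. The deposited files list, per the file headers, each cytosine of a CpG with its read coverage as a count and its methylated and unmethylated shares in percent. Methylated read counts were recovered here as coverage times the deposited percent, rounded to whole reads. Sites on both strands were kept apart, and CpG number is the number of CpGs listed in the tile in any library with strands joined. Common sites with at least 10 reads in all 16 libraries were summed in 1-kb tiles with at least 3 sites (94337 tiles).

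Tiles were tested with edgeR 4.0.16 (quasi-likelihood, R 4.3.3) on methylated and unmethylated counts of all 16 libraries in one fit, with Benjamini-Hochberg adjustment over all tiles. A quasi-binomial test with limma 3.58.1 was an alternative. Cluster means were compared over libraries with exact two-sided permutation tests. For late against early days, libraries of different days were taken as replicates of a period, and D0 was left out because it set the matching. Matched tiles came from the same chromosome outside the window. Alternatives were at least 20 reads per site, at least 1 site per tile, strands merged, a minimum of 25 points, pooled reads, a trended dispersion, other classes for matching, windows shortened by 200 kb, a replicate block, the compared groups alone and each library left out. In each cluster the tiles named were the 3 largest falls and the 3 largest kept shares at D12 (kept shares among tiles at 50% or more in D0), the 3 largest called rises and falls in iPSCs against D0, the longest run lower at D12 (the first along the chromosome where runs tied) and the most deeply read tile under 15% throughout.

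The members, lists and tests were chosen with earlier results of these data known. PCR reads carry no molecular identifiers here, so the same molecule can be counted more than once. No genome of the files' build was used, so no sequence is given.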

Additional observations from a re-analysis of the deposited data

How the results depend on the processing

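The fall at D12 kept its direction in all 3 clusters under each alternative run, but counts of calls moved with the settings. At least 20 reads per site left 73 of the 147 member tiles, so these counts cover fewer tiles. Of the 73, 59 were called at D8 (105 of 147 in the report), 60 at D10 (112) and 64 at D12 (122). For iPSC against D12 the calls were 57 (102), and for iPSC against D0 16 (36). Lower chromosome 13 tiles in iPSCs were 7 of 28 (23 of 72). Over all 47199 tiles so tested, 35738 were lower and 154 higher at D8, 38239 and 65 at D10, and 38641 and 197 at D12. For iPSC against D0 they were 5523 and 2431, and against D12 493 and 37268. With a minimum of 25 points the member calls were 2 at D6 (42), 58 at D8, 22 for iPSC against D0 and 14 on chromosome 13. Over all 94337 tiles that minimum gave 3553 lower and 6 higher at D6, and 45984 and 80 at D8. For iPSC against D0 it gave 5347 and 2326. Fitting the compared groups alone gave 26 at D6, beside 14448 lower and 163 higher of all 94337 tiles. The quasi-binomial test gave 1 at D4 (0), beside 719 lower and 71 higher of all tiles. Leaving out each library gave 1 to 15 at D6, 20 to 23 for iPSC against D0 and 10 to 13 on chromosome 13.

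The gap of late against early days on chromosome 4 stayed positive under each alternative, with 7.92 (adjusted exact permutation p = 0.0857) with D8 and D10 as the late days. Before adjustment that p was the smallest that 4 against 4 libraries allow. On chromosome 2 it passed the threshold with 1 site per tile (3.98, adjusted exact permutation p = 0.0357). On chromosome 13 it passed with 20 reads (4.03, adjusted 0.0214) and pooled reads (2.91, adjusted 0.0357), and leaving out libraries gave 1.94 to 2.82 (exact permutation).

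Some directions turned. The iPSC minus D0 gap on chromosome 4 was 1.87 with pooled reads. The D12 minus D0 gap on chromosome 2 was -0.91 in shorter windows, -0.17 with classes from D0 replicate 1, 4.02 with 1 site per tile and -0.40 to 1.41 with libraries left out. The iPSC minus D0 level on chromosome 2 was 0.10 with strands merged, 1.26 with pooled reads and -1.16 to 0.042 with libraries left out, and its iPSC minus D12 gap was -1.68 with 1 site per tile. The tile at chr4:146427001-146428000 ranged from -20.7 to 0.62 with libraries left out. The cause was not tested.

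Replicate numbers did not pair the libraries: the correlation of same-numbered deviations was -0.014 to 0.008 over 28 pairs of groups. With a replicate block the calls were 41 at D6, 105 at D8, 114 at D10, 121 at D12, 35 for iPSC against D0 and 103 for iPSC against D12, and 22 on chromosome 13.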

Other observations

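Replicate libraries at D12 differed more in the chromosome 13 cluster than elsewhere on the chromosome. The median absolute difference between the 2 D12 libraries was 7.90 points over its tiles, against 4.65 points over the other tiles of chromosome 13. On chromosome 4 it was 4.90 points in the cluster and 4.98 outside, and on chromosome 2 it was 4.39 points in the cluster and 4.86 outside. The difference between clusters was not tested.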
